A study of Mus musculus with 6 samples.

Results

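The interleukin-1 (IL-1) family was followed through 9 genes in stromal cells of injured mouse muscle that were sorted by a reporter of p16. The members were chosen by symbol from the 55536 genes of GENCODE vM21 and comprise the agonist ligand genes Il1a, Il1b, Il18 and Il33, the antagonist gene Il1rn, the signalling receptor genes Il1r1, Il1rap and Il1rl1, and the decoy receptor gene Il1r2. All 9 were matched in the files and all 9 passed the filter on low counts. The 2 groups of cells compared, p16+ and p16-, were both from animals carrying a tdTomato reporter of p16 on the C57Bl/6 background. There were 3 libraries of cells sorted as p16+ and 3 of cells sorted as p16-. In both, the cells lacked CD45, which marks leukocytes, and CD31, which marks endothelium, and carried the integrin CD29. Both groups came from a model of foreign body fibrosis in which part of the quadriceps was removed at 10 weeks of age. Per the labels, the wound received polycaprolactone (30 mg), decellularized matrix or saline (50 uL), and muscle was taken 1 or 6 weeks afterwards. Which of these applied to each library, how the reporter is built and whether a library pools animals are not given in the sources used here. P-values therefore measure only the spread between these samples.

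IL-1 family cytokines are alarm signals of damaged tissue. A ligand binds its own receptor chain, a second chain joins (for IL-1 and IL-33 the co-receptor encoded by Il1rap), and the adaptor MyD88 passes the signal through IRAK kinases to NF-kappaB. Signalling is held back by the receptor antagonist encoded by Il1rn, which occupies the IL-1 receptor without activating it, and by the decoy receptor encoded by Il1r2, which captures IL-1 but has no signalling domain. In cultured senescent cells, IL-1 alpha is known as an upstream driver of inflammatory secretion, and in muscle, mesenchymal cells are a known source of IL-33.

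The sort gene Cdkn2a, which encodes p16, had 6.91, 8.82 and 7.74 CPM (normalised counts) in the p16+ libraries and 2.41, 1.77 and 2.20 CPM in the p16- libraries. CPM are scaled to library size, and libraries are named by their replicate number. Totals were 35253406 to 39103909 counts per library, so that 3 counts corresponded to 0.0737 to 0.0876 CPM. On the second principal component of log2 CPM, with 18.1% of the variance, p16+ replicates 2 and 3 lay farthest apart. Stromal identity was described by 10 fibroblast markers, which include Itgb1, the gene of the sort antigen CD29. All of these markers were tested, and 5 were higher and 2 lower in p16+. Led by Col3a1, they summed to 153609 to 160880 CPM in p16+ and 92481 to 109946 CPM in p16-. Markers of other cell types were also present. Pericyte and smooth muscle markers summed to 2052 to 2135 CPM in p16+ and 1359 to 1725 CPM in p16-. Macrophage and monocyte markers summed to 288 to 339 CPM in p16+ and 205 to 233 CPM in p16-, and 10 Schwann cell markers to 295 to 335 and 443 to 515 CPM. Of 15903 genes tested, 2660 (16.7%) passed the threshold of an adjusted p of 0.05 by edgeR's quasi-likelihood test, 8.69% of the tested genes as higher and 8.04% as lower in p16+. With library sizes alone, 36% of the calls were higher in p16+, in place of 52.0%.

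Between p16+ and p16- cells, 4 of the 9 members (44.4%) passed the test, beside 16.7% of all genes tested. Il18 and the decoy receptor gene Il1r2 fell in p16+ cells, and Il33 and its receptor gene Il1rl1 rose by smaller steps. The remaining 5, Il1a, Il1b, Il1rn, Il1r1 and Il1rap, did not pass. The 2 that fell also changed by at least 2-fold, which 4.21% of all genes tested did while passing the test. The count was 2, with 0 higher, when replicate 2 or 3 of p16+ or replicate 3 of p16- was left out. The median log2 fold change over the members was 0.01, beside -0.01 over all genes tested. Among the 7 signalling members 2 rose, 1 fell and 4 did not pass. Of the decoy and antagonist pair, 1 fell and 1 did not pass.

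**Figure D1:**
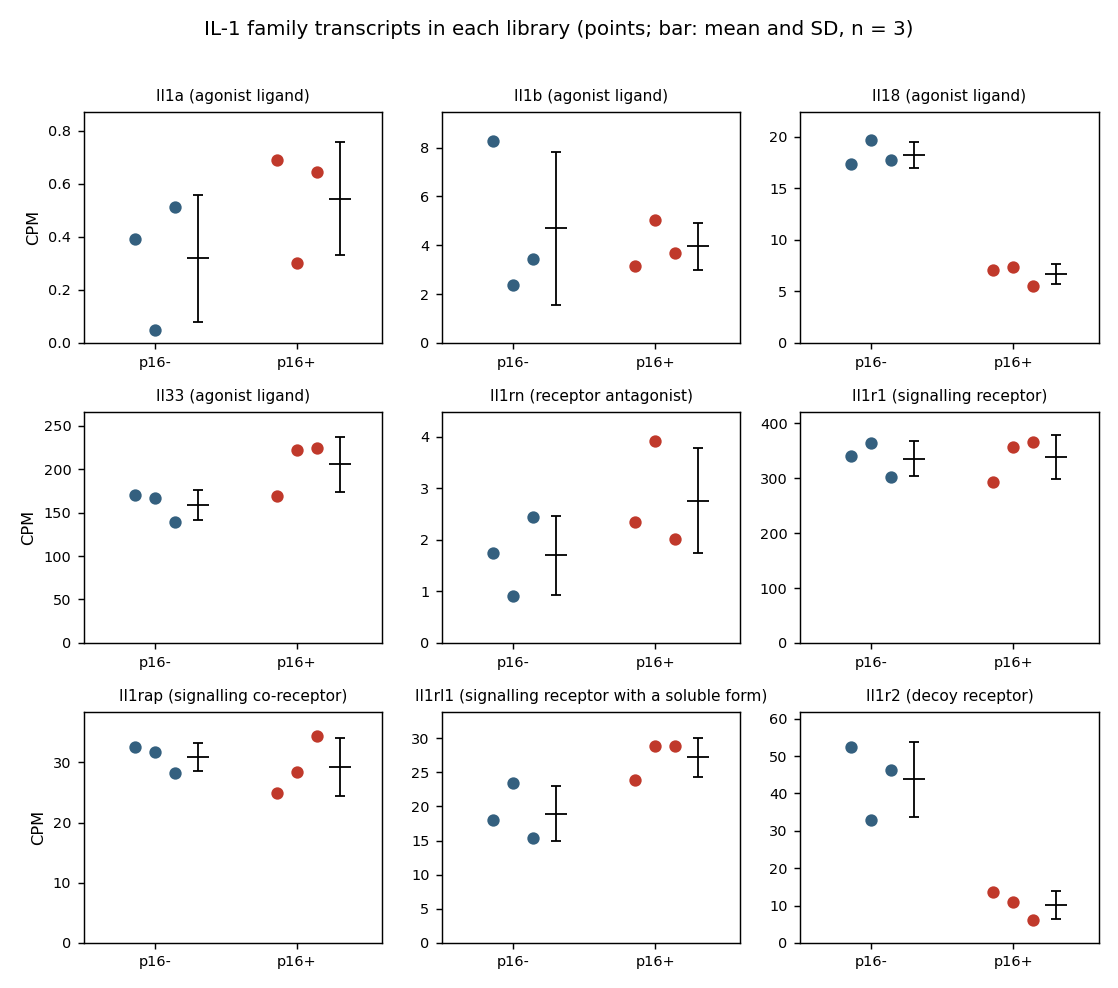
CPM of the 9 members in each library, with p16- libraries in blue, p16+ libraries in red, and the mean and SD of each group as bars (n = 3), each panel on its own linear axis from 0. Il18 and Il1r2 are separated widely between the groups, Il1rl1 narrowly (23.4 against 23.9 CPM at the nearest points), and the other 6 members overlap.

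The members differed widely in abundance. On the scale of CPM per kb of exon, used to compare levels of different genes, Il33 and Il1r1 led in both groups. The length counts all annotated exons of a gene, and which isoforms were expressed was not determined. In p16- cells Il33 stood at 55.0 ± 5.93 and Il1r1 at 52.7 ± 4.98 CPM per kb (SD, n = 3), and the ranges of these neighbours in the order overlapped. Il1r2 followed at 23.0 ± 5.25 and Il18 at 17.7 ± 1.20, again with overlapping ranges. Il1rl1 at 2.75 ± 0.589, Il1rap at 2.72 ± 0.202 and Il1b at 2.46 ± 1.65 CPM per kb could not be ordered beyond their spread. Il1rn at 0.307 ± 0.139 and Il1a at 0.161 ± 0.121 were lowest, with overlapping ranges. In p16+ cells the order was the same except that Il18, at 6.46 ± 0.941, and Il1r2, at 5.36 ± 1.97 CPM per kb, changed places within overlapping ranges. The ranges of Il33 (71.2 ± 10.8) and Il1r1 (53.2 ± 6.23) did not overlap there.

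Among the agonist ligands, Il18 changed most. It encodes a cytokine made as a precursor that caspase-1 cleaves, and known for its part in interferon-gamma production. Il18 (ENSMUSG00000039217.13, chromosome 9, 50554827 to 50581840, plus strand, GRCm38) had 7.07, 7.35 and 5.55 CPM in p16+ replicates 1 to 3 and 17.3, 19.6 and 17.7 CPM in p16- replicates 1 to 3. Every p16+ library lay below every p16- library, and the lowest p16- value was above the highest p16+ value by more than the range within either group. The log2 fold change was -1.45 (SE 0.15, 95% interval -1.77 to -1.14, adjusted p = 4.46e-06 by edgeR), a level 2.74-fold lower in p16+. In bulk samples such as these, fewer cells of a type and less RNA per cell cannot be told apart.

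Il33, which encodes a nuclear alarmin released on cell damage, was the most abundant ligand. Il33 (ENSMUSG00000024810.16, chromosome 19, 29925114 to 29960718, plus strand) had 169, 222 and 225 CPM in p16+ and 170.4, 167 and 139 CPM in p16-. Replicates 2 and 3 of p16+ stood above all p16- libraries, while p16+ replicate 1 lay among them, so the groups overlapped. The log2 fold change was 0.37 (SE 0.11, 95% interval 0.14 to 0.60, adjusted p = 0.0264 by edgeR), or 1.29-fold. The call did not hold when replicate 2 or 3 of p16+ or replicate 3 of p16- was left out (adjusted p = 0.135, 0.152 and 0.144) and with library sizes alone (adjusted p = 0.0689).

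The sequences just before the annotated starts of these ligand genes are shown because Il18 and Il33 are the ligands that passed the test, in opposite directions. They are from RefSeq (GRCm38.p6), on the plus strand, 5′ to 3′, and each ends 1 base before the start. RefSeq gives Il33 an upstream and a downstream start, and the gene counts sum over both. Capitals mark matches, on either strand, to TATAAA, the core of the TATA box.
Il18, chr9:50554450-50554699: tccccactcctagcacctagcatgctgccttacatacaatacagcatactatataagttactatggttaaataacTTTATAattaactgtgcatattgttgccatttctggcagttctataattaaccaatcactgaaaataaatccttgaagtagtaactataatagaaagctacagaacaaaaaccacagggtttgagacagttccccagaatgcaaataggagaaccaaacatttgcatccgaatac
Il33 upstream start, chr19:29924863-29925112: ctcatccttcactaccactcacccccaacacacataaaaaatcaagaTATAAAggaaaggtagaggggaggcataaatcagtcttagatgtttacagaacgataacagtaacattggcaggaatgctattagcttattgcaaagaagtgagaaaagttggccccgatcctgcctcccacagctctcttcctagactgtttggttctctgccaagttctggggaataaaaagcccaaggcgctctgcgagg
Il33 downstream start, chr19:29945540-29945789: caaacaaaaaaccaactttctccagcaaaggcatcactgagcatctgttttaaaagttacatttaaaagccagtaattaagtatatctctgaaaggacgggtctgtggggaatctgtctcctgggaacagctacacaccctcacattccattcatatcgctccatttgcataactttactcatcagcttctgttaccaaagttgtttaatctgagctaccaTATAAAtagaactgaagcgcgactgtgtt
The match before the downstream start of Il33 begins 29 bases before it. Those of the upstream start of Il33 and of Il18 begin 203 and 175 bases before the start, the last on the opposite strand. TATAAA was present in 12.4% of the 32851 promoter windows of 250 bases in the RefSeq table. Also searched on both strands were TGANTCA (the AP-1 site, in 6.75% of windows), CACGTG (the E-box, 6.02%), the core of the interferon-stimulated response element (GAAA, a gap of 2 bases and GAAA, 2.98%) and the NF-kappaB consensus (3.90%), with none of these letters in the stretches shown. Over the 14 windows of the 9 members, TATAAA was in 5, TGANTCA in 2 (Il1a and Il1rn), CACGTG in 1 (Il1r2), the NF-kappaB consensus in 1 (the downstream start of Il1r1) and the interferon-stimulated core in 0. These motifs were chosen after the values had been seen.

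Il1a and Il1b, the ligands of Il1r1, were scarce. Il1a (chromosome 2, 129299610 to 129309972, minus strand) had 25, 11 and 22 counts in p16+ and 16, 2 and 19 counts in p16-. These values overlapped, and the log2 fold change of 0.77 had a 95% interval from -0.98 to 2.52 (adjusted p = 0.601 by edgeR), so a difference was not detectable at this depth. Of the exonic length of Il1a 11.2% is shared with Gm14023, an antisense gene whose reads cannot be distinguished without strand. Il1b (chromosome 2, 129364570 to 129371139, minus strand), the secreted IL-1 of inflamed tissue, had 3.14, 5.04 and 3.68 CPM in p16+ and 8.26, 2.37 and 3.44 CPM in p16-. A single library, p16- replicate 1, was far above the other 5. The log2 fold change was -0.25 (95% interval -1.02 to 0.53, adjusted p = 0.718), and it was 0.45 without that library (adjusted p = 0.414).

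The antagonist gene Il1rn (chromosome 2, 24336853 to 24351494, plus strand) had 2.34, 3.92 and 2.01 CPM in p16+ and 1.75, 0.908 and 2.45 CPM in p16-. The groups overlapped and the log2 fold change of 0.70 did not pass (SE 0.39, 95% interval -0.14 to 1.54, adjusted p = 0.269 by edgeR). Il1a, Il1b and Il1rn are made by myeloid cells, and the macrophage and monocyte markers moved with the groups. Of 16 such markers 14 were tested, of which 6 were higher and 0 lower in p16+, among them Csf1r, Mrc1 and the 3 C1q genes, and Lyz2 was the most abundant (168 ± 8.41 CPM in p16+, 124 ± 12 in p16-). None of the 16 was at 0 in all libraries. Ptprc, which encodes CD45, had 5.37 to 9.77 CPM in p16+ and 4.14 to 5.93 CPM in p16-. Of 10 neutrophil markers, 5 were tested and 1, Mmp8, was higher, and S100a9, the most abundant, had 2.47 ± 0.239 and 3.18 ± 0.965 CPM. The summed neutrophil list was at 8.63 to 9.74 CPM in p16+ and 6.81 to 7.13 CPM in p16-. Mmp8, at 2.54 ± 0.903 CPM in p16+ and 0.560 ± 0.345 in p16-, had the largest rise in CPM in that list. S100a8 was nearly level at 2.11 ± 0.370 and 2.14 ± 0.558 CPM. The part of these myeloid cells in the levels of the ligands and the antagonist was not tested.

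The receptors of IL-1 divided between a signalling pair that did not pass and a decoy that fell. Il1r1 (ENSMUSG00000026072.12, chromosome 1, 40225080 to 40317257, plus strand), the receptor through which IL-1 alpha and beta signal, had 293, 357 and 366 CPM in p16+ and 341, 364 and 302 CPM in p16-. The libraries of both groups were interleaved. The log2 fold change was 0.01 (SE 0.10, adjusted p = 0.949 by edgeR) with a 95% interval from -0.19 to 0.22. Il1rap (chromosome 16, 26581704 to 26730117, plus strand), the co-receptor of IL-1 and IL-33, had 24.9, 28.4 and 34.4 CPM in p16+ and 32.5, 31.8 and 28.2 CPM in p16-. The groups overlapped again, at a log2 fold change of -0.08 (SE 0.12, 95% interval -0.33 to 0.17, adjusted p = 0.727). Both receptor genes also have soluble products that could bind ligand without signalling, and gene-level counts do not separate these from the membrane forms.

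Il1r2 (ENSMUSG00000026073.13, chromosome 1, 40074079 to 40125231, plus strand) had 494, 402 and 211 counts in p16+ and 2129, 1300 and 1724 counts in p16-. In CPM these were 13.6, 10.9 and 6.16 against 52.3, 32.8 and 46.3. The lowest p16- library was more than 2-fold above the highest p16+ library. The log2 fold change was -2.10 (SE 0.29, 95% interval -2.76 to -1.43, adjusted p = 0.00149 by edgeR), the largest in size among the 9 members. The RefSeq promoter window of Il1r2 lies within exons annotated in vM21 and is therefore not shown.

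**Figure D2:**
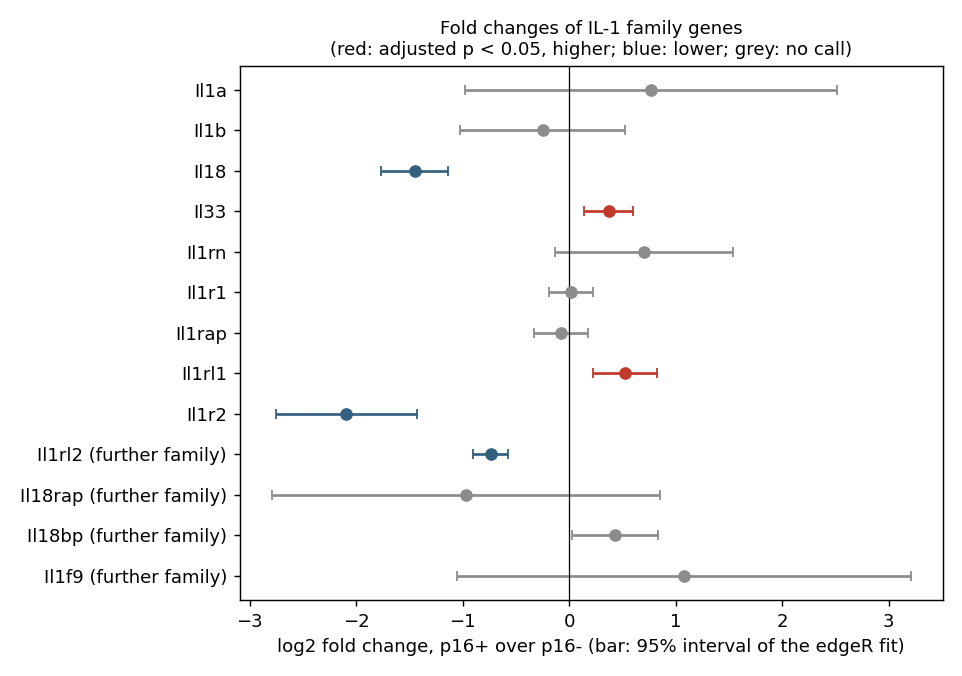
Log2 fold changes of p16+ over p16- for the 9 members and the 4 tested further genes of the family, with the 95% interval of the edgeR fit as bars. Il1r2 (-2.10), Il18 (-1.45) and Il1rl2 (-0.74) lie below 0 and are called lower, Il33 (0.37) and Il1rl1 (0.52) are called higher, and the interval of Il1r1 around 0.01 is narrow while those of Il1a and Il1f9 are wide.

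Ratios within a library need no scaling between libraries and set the receptors directly against each other. They are given as a description, without a test. Per kb of exon, Il1r1 exceeded Il1r2 by 6.47, 9.79 and 17.8 times in p16+ replicates 1 to 3 and by 1.95, 3.33 and 1.95 times in p16- replicates 1 to 3. The smallest ratio in p16+ was thus above the largest in p16-. Mean log2 ratios were 3.38 ± 0.73 and 1.22 ± 0.45 (SD, n = 3), which is a 4.46-fold difference between the groups. Il1rap stood to Il1r2 at 0.308, 0.436 and 0.938 in p16+ and 0.104, 0.163 and 0.102 in p16-. Per length, the decoy thus stood above the co-receptor in all 6 libraries, by the least in p16+ replicate 3. The lengths are those of all annotated exons, 11360 bp for Il1rap and 1908 bp for Il1r2. Raw counts of Il1rap were above those of Il1r2 in p16+ (906, 1044 and 1179 against 494, 402 and 211). In p16- they were below (1324, 1261 and 1051 against 2129, 1300 and 1724). The order in p16+ therefore rests on the lengths used. Against the sum of Il1a and Il1b, the antagonist Il1rn stood at 0.212, 0.254 and 0.161 in p16+ and at 0.0696, 0.129 and 0.214 in p16-, and these ratios overlapped.

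**Figure D3:**
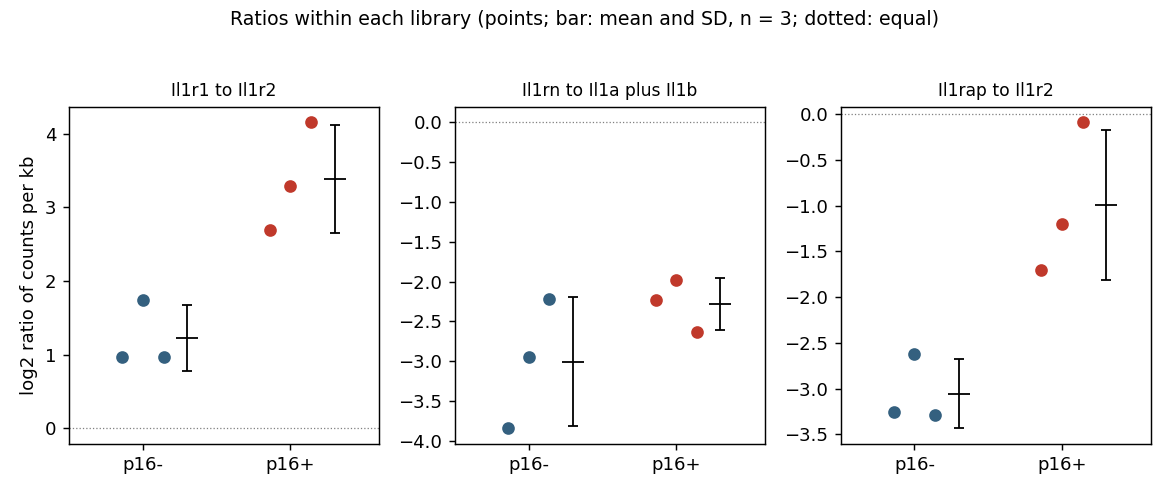
Log2 ratios of counts per kb within each library, with p16- in blue, p16+ in red, and group mean and SD as bars (n = 3). The ratio of Il1r1 to Il1r2 has a mean of 3.38 in p16+ and 1.22 in p16- with no overlap, that of Il1rap to Il1r2 does not overlap either, and that of Il1rn to the sum of Il1a and Il1b overlaps (-2.28 and -3.01).

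Il1rl1 (ENSMUSG00000026069.15, chromosome 1, 40429570 to 40465415, plus strand) encodes ST2, the receptor of IL-33, as a membrane form and a soluble form that captures the ligand. It had 23.9, 28.8 and 28.8 CPM in p16+ and 18.1, 23.4 and 15.4 CPM in p16-. Each p16+ library was above each p16- library, with p16- replicate 2 and p16+ replicate 1 nearly level. The log2 fold change was 0.52 (SE 0.14, 95% interval 0.22 to 0.82, adjusted p = 0.0181 by edgeR), or 1.43-fold, and gene counts do not tell which form it reflects. The call did not hold when replicate 2 or 3 of p16+ or replicate 3 of p16- was left out (adjusted p = 0.0778, 0.0862 and 0.0968). Mast cells and lymphoid cells are known carriers of ST2. Of 10 mast cell markers 3 were tested, 0 were higher and 1, Hdc, was lower. Tpsab1 and Cma1 were at 0 in all libraries, and the list, led by Kit, summed to 3.57 to 5.56 CPM in p16+ and 4.39 to 10.9 CPM in p16-. Of 12 lymphoid markers 4 were tested and 0 were called by edgeR, although 2 had an unadjusted p under 0.05. These were Cd79a (log2 fold change 2.74, adjusted p = 0.0518) and Il7r (1.16, adjusted p = 0.163), both higher in p16+ like Il1rl1 and at low counts. The other tested markers, Cd2 (-0.87) and Rora (-0.15), were lower without a call. That list summed to 68.5 to 80.2 CPM in p16+ and 75.4 to 86.2 CPM in p16-, nearly all of it Rora.

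Of the 9 members, 3 had groups that did not overlap, Il18, Il1rl1 and Il1r2, where 33.1% of all genes tested had none. An exact permutation test of log2 CPM (two-sided), which cannot go below p = 0.1 with 3 against 3 libraries, gave p = 0.1 for each of them and p = 0.2 for Il33. Il18 and Il1r2 kept an adjusted p under 0.05 under all 14 alternative settings, which include DESeq2 and limma-voom. Schwann cell markers moved in the direction of Il18 and Il1r2. Of 10, 8 fell and 0 rose, with Pmp22 the most abundant, and none of the 10 was at 0 in all libraries. Of 10 epithelial markers 2 were tested and 1, Krt10, fell, and the list summed to 4.32 to 5.61 CPM in p16+ and 7.52 to 9.78 CPM in p16-. Of 10 endothelial markers 4 rose and 1, Tek, the most abundant, fell, and their sum was 73.0 to 102 CPM in p16+ and 176 to 209 CPM in p16-. The larger part of these sums was Tek, at 49.2 ± 7.79 CPM in p16+ and 168 ± 13.8 in p16-. The median log2 fold change of the list was 1.05. Without p16+ replicate 3, 1 of the 4 that rose, Pecam1, lost its call (adjusted p = 0.0621). Pericyte and smooth muscle markers, led by Rgs5, moved in the direction of Il33 and Il1rl1, with 7 of 10 higher, 0 lower and a sum of 2052 to 2135 CPM in p16+ and 1359 to 1725 CPM in p16-. Of 10 markers of satellite cells and muscle fibres, led by Acta1, 1 rose (Pax7) and 1 fell (Myog). The part of these cell types in the levels of Il18, Il33, Il1rl1 and Il1r2 was not tested.

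Il1r2, Il1r1 and Il1rl1 are neighbours on chromosome 1, and the genes of this cluster differed in their change. Il1rl2, which encodes the IL-36 receptor and lies between Il1r1 and Il1rl1 (40324610 to 40367562), had 113, 127 and 117 CPM in p16+ and 193, 201 and 203 CPM in p16-. It fell by 0.74 on the log2 scale (SE 0.08, adjusted p = 4.89e-06 by edgeR), with no overlap between groups. In order along the plus strand, the log2 fold changes were -2.10 for Il1r2, 0.01 for Il1r1, -0.74 for Il1rl2 and 0.52 for Il1rl1. Next to Il1rl1 lies Il18r1, a chain of the IL-18 receptor, with 0, 1 and 0 counts in p16+ and 5, 26 and 2 counts in p16-, too few to be tested. On the other side of the cluster, the kinase gene Map4k4 averaged 271 ± 3.42 CPM in p16+ against 222 ± 13.0 in p16- (0.29, adjusted p = 0.0136). Its call was lost without replicate 2 or 3 of p16+ (adjusted p = 0.0643 and 0.0634) and with library sizes alone (adjusted p = 0.0547). At the ligand genes on chromosome 2, Ckap2l, beside Il1a, and Psd4, beside Il1rn, did not pass (adjusted p = 0.721 and 0.544), and Il1f10 had no counts.

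**Figure D4:**
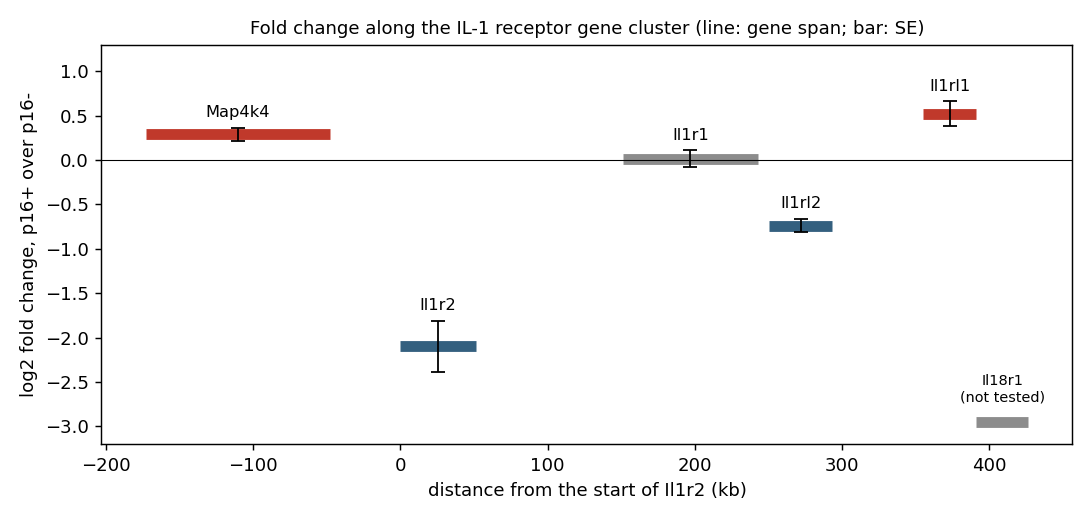
Log2 fold change of p16+ over p16- for protein-coding genes of the IL-1 receptor cluster, plotted against the distance from the start of Il1r2 in kb, with horizontal lines as gene spans and bars as SE. The values go from -2.10 at Il1r2 through 0.01 at Il1r1 and -0.74 at Il1rl2 to 0.52 at Il1rl1, and Il18r1 is drawn in grey at the bottom of the plot because it was not tested.

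Of 12 further ligands, receptors and binding proteins of the family, 4 were tested and 1, Il1rl2, fell. That is 25% called, beside 16.7% of all genes tested. Il18bp, which encodes a secreted protein that neutralizes IL-18, was at 7.42 ± 0.810 CPM in p16+ and 5.51 ± 0.827 in p16- and did not pass (adjusted p = 0.146 by edgeR). Il18rap, the second chain of the IL-18 receptor, had 2 to 23 counts per library (adjusted p = 0.512). The IL-36 ligand gene Il1f9 had 0 to 33 counts (adjusted p = 0.536). Il1f5, Il1f6, Il1f8, Il1f10 and Il1rapl2 were at 0 in all 6 libraries, which allows up to 3 counts in each.

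In the proximal signalling chain an adaptor and an inhibitor fell. Of 18 genes, all tested, 0 rose, 2 fell and 16 did not pass, which is 11.1% called beside 16.7% of all genes. Myd88, the adaptor of the receptors, had 76.3, 72.4 and 78.2 CPM in p16+ and 136, 99.3 and 123 CPM in p16-. Its log2 fold change was -0.66 (SE 0.10, adjusted p = 1.98e-04 by edgeR). Irak3, which encodes a kinase-dead inhibitor of the chain, had 63.9, 61.1 and 65.0 CPM in p16+ and 95.2, 93.3 and 100.2 CPM in p16- (-0.60, SE 0.07, adjusted p = 2.68e-05). In both genes the lowest p16- library lay above the highest p16+ library. Of the exonic length of Myd88 11.3% is overlapped by Acaa1a on the opposite strand.

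Of 18 genes of inflammasomes and ligand processing, 14 were tested, 2 rose, 1 fell and 11 did not pass. That is 21.4% called, near the 16.7% of all genes tested. Casp4, the sensor caspase of the noncanonical inflammasome, had 42.5, 52.7 and 48.8 CPM in p16+ and 89.0, 67.1 and 60.5 CPM in p16- (-0.59 on the log2 scale, adjusted p = 0.00303 by edgeR). P2rx7, an ATP-gated channel that triggers the NLRP3 inflammasome, was higher at 44.5, 48.6 and 51.0 CPM in p16+ against 32.0, 40.0 and 27.3 for p16- (0.54, adjusted p = 0.00479). Casp8, a caspase that can also process IL-1 beta, was at 33.8 ± 3.96 and 26.5 ± 1.71 CPM (0.35, adjusted p = 0.0349), and its call was lost when replicate 2 or 3 of p16+ or replicate 1 or 3 of p16- was left out (adjusted p = 0.149, 0.145, 0.0886 and 0.0916) and with library sizes alone (adjusted p = 0.0844). Casp1, which cleaves the precursors of IL-1 beta and IL-18, averaged 23.6 ± 3.23 CPM in p16+ against 24.4 ± 1.40 in p16- (adjusted p = 0.856), and Nlrp3 at 1.90 ± 0.381 and 1.98 ± 0.731 CPM (adjusted p = 0.94). Both were named after their values were seen.

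Genes that IL-1 is known to induce in fibroblasts went in both directions. Of 27, 26 were tested, 4 rose, 9 fell and 13 did not pass, with a median log2 fold change of -0.24. That is 50.0% called, beside 16.7% of all genes tested. Ptgs2, which encodes the inducible cyclooxygenase, had 159, 135 and 136 CPM in p16+ and 447, 423 and 439 CPM in p16-. Its log2 fold change was -1.61 (SE 0.08, adjusted p = 2.98e-08 by edgeR), a level 3.04-fold lower in p16+. Cxcl1, a neutrophil chemokine gene, fell by 0.73 on the log2 scale. The others that fell were Il6, Cxcl2, Ccl2, Ccl7, Nfkbia, Nfkbiz and Zc3h12a, with log2 fold changes from -0.77 for Il6 to -0.35 for Zc3h12a. For Il6, Cxcl1, Ccl2 and Ccl7, p16- replicate 1 stood well above the rest of its group. Il6 had 870, 589 and 619 CPM in p16- and Cxcl1 1649, 1225 and 1155 CPM. Il6 and Cxcl1 kept their calls under all 14 alternatives, with falls as small as -0.57 and -0.55. Mmp3 and Vcam1, which encode stromelysin 1 and a leukocyte adhesion molecule, rose by 1.28 and 0.77, and Mmp13 and Saa3 by 2.20 and 1.5. Cxcl5 was higher in p16+ without overlap between groups (1.65) but did not pass (adjusted p = 0.0536 by edgeR). The call of Saa3 was lost when replicate 2 or 3 of p16+ or replicate 1 or 2 of p16- was left out (adjusted p = 0.107, 0.0643, 0.14 and 0.0949), without the filter (adjusted p = 0.11) and by limma-voom (adjusted p = 0.0573). That of Zc3h12a was lost when replicate 1 or 3 of either group was left out (adjusted p = 0.0895, 0.0605, 0.0528 and 0.053). These genes respond to other signals too, part of them were known to differ when the list was drawn up, and those beyond Ptgs2, Mmp3, Vcam1 and Cxcl1 were named after their values were seen.

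**Figure D5:**
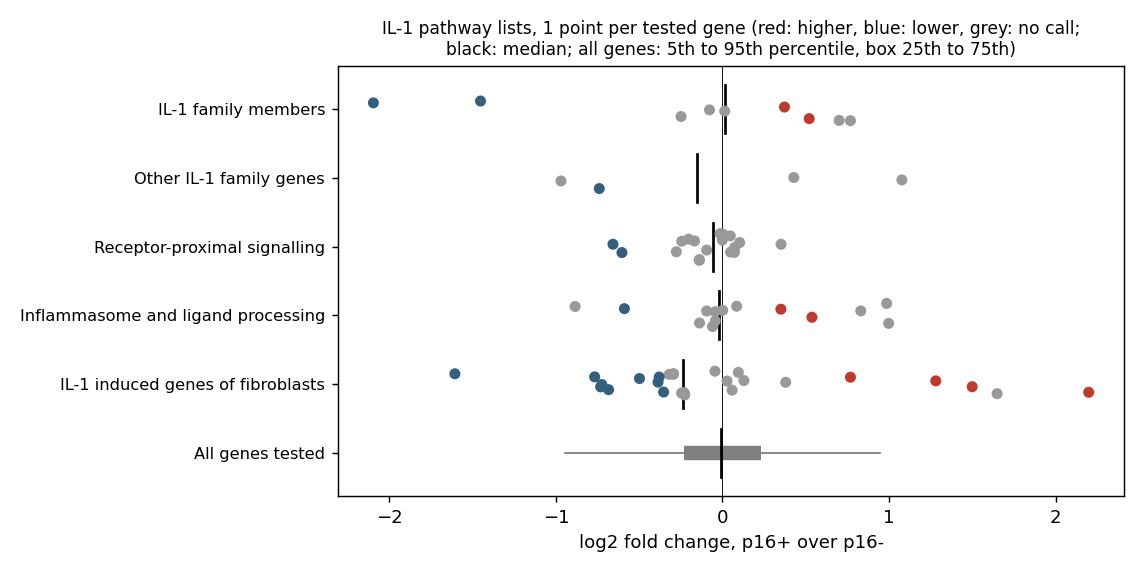
Log2 fold changes of p16+ over p16- for each tested gene of the members and of 4 pathway lists, with called genes in red or blue, the list medians as black lines, and the spread of all 15903 genes tested at the bottom. The induced genes spread from -1.61 (Ptgs2) to 2.20 (Mmp13) around a median of -0.24, and the proximal signalling genes lie close to their median of -0.05 except for Myd88 and Irak3.

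The genes whose profile over the 6 libraries was most like that of each changed member were found by the root mean square (RMS) difference of log2 CPM after each gene was centred on its mean, among 10511 genes. This is a description in which the group difference takes a large part. Nearest to Il1r2 were the collagen gene Col20a1 (RMS difference 0.24), the carbonic anhydrase-related gene Car8 (0.25) and the neural adhesion gene L1cam (0.28). Nearest to Il18 were the transcription factor gene Creb5 (0.087), the potassium channel gene Kcnn3 (0.10) and the tubulin gene Tubb4a (0.10). Nearest to Il33 were Uqcc3 (0.030), the monocarboxylate transporter gene Slc16a1 (0.044) and Purg (0.045). Uqcc3 and Purg did not themselves pass (adjusted p = 0.0959 and 0.232 by edgeR). Nearest to Il1rl1 were P2rx7 (0.044), Ell2 (0.066) and the ezrin gene Ezr (0.072). Il1r2 had no neighbour as near as the other 3 members had. It also had the largest fold change of the members (-2.10 on the log2 scale), and the RMS difference is not scaled to the size of the change.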

How the data were processed

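RNA-seq was measured in 6 libraries. The authors deposited raw gene counts, which featureCounts 1.6.0 produced from paired reads over GENCODE vM21 exons without a strand setting, per the file headers. The submitters' processing notes name bcl2fastq, STAR 2.7.3a and the build GRCm38.p6. Overlap with another gene is given where it exceeds 10% of the exonic length of a member or pathway gene described.

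All 55536 identifiers, with their starts and ends, matched vM21, which gave the symbols. Low counts were removed by filterByExpr (default settings), and the rest was scaled with TMM factors and tested with edgeR 4.0.16 in R 4.3.3 (glmQLFit with robust estimation, glmQLFTest), with the group alone in the model and Benjamini-Hochberg adjustment over all 15903 genes tested. Fold changes are p16+ over p16-, CPM are scaled by TMM, and log2 CPM used a prior count of 2. The SE is the size of the unshrunken log2 fold change of the fit divided by the root of F. The fold changes given are those that edgeR shrinks by its prior count. The scripts were tested on simulated data. Alternatives were RLE and upper-quartile factors, library sizes alone, no filter, a stricter filter (CPM of at least 1 in at least 3 libraries), DESeq2 1.42.0, limma-voom (limma 3.58.1), a replicate block and leaving out each library.

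The members, gene lists and tests were chosen with earlier results of these data known. Named were the members, Cdkn2a and gate genes, up to 4 called genes of smallest p per pathway list, the most abundant marker of each cell type list, chromosomal neighbours, the 3 genes most like each changed member with a mean log2 CPM of at least 2, and genes said to be named after their values were seen.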

Additional observations from a re-analysis of the deposited data

How the results depend on the processing

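Il18 and Il1r2 kept their direction and their call under all 14 alternatives, with log2 fold changes from -1.53 to -1.34 and from -2.35 to -1.84. With library sizes alone, Il33 did not pass (0.30, adjusted p = 0.0689), so that 1 member was higher, and Il1r1, never past the threshold, turned to -0.063. With 1 library left out, the number of members called ranged from 2 to 4 and the number higher from 0 to 2. Il33 then ranged from 0.29 to 0.49 and Il1rl1 from 0.39 to 0.70, each losing its call without replicate 2 or 3 of p16+ or replicate 3 of p16-. The values of Il1b (-0.57 to 0.45), Il1r1 (-0.056 to 0.11) and Il1rap (-0.21 to 0.024) changed sign without passing. Il1b turned to 0.45 without p16- replicate 1, Il1rap to 0.024 without p16+ replicate 1, and Il1r1 to -0.027, -0.046 and -0.056 without replicates 2 and 3 of p16+ and replicate 3 of p16-. The cause was not tested. Il1a was not tested under the stricter filter. The labels do not say whether libraries with the same replicate number are paired. Correlations of same-numbered deviations were 0.028, 0.082 and -0.0046, and p16+ replicates 1 and 3 did not correlate best with their own number. Such small correlations with 3 libraries per group cannot decide whether the samples are paired. A replicate block gave 3114 called genes in place of 2660 and changed no member's call. Saa3 (adjusted p = 0.182) and Ccl7 (adjusted p = 0.0901) lost theirs. Saa3 also lost its call without the filter (adjusted p = 0.11) and by limma-voom (adjusted p = 0.0573). Depth limits Il1a, Il18rap, Il18r1 and Il1f9, whose counts reached at most 33 in a library.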
